A study of Mus musculus with 2 samples.

Results

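Naive and primed pluripotency factors are genes whose expression separates an earlier from a later form of the pluripotent state. They were read here in CH cells, small cells circulating in mouse blood. The naive genes were Esrrb, Tfcp2l1, Klf2, Tbx3, Tcl1 and Nr0b1, and the primed genes were Fgf5, Otx2 and Pou3f1. Every probe set that the platform annotation assigns to 1 of these 9 genes alone was taken, which gave 19 of 45037 probe sets and 9 of 18193 genes. The rule uses no signal, although the genes were chosen with earlier results of these data known. A probe set is a group of short oligonucleotides on the array that together read 1 transcript or a part of it.

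RNA came from CH cells (PlCH in the labels) of C57bl/6 mice, male and female, adult at 7 months. Each of the 2 arrays held the RNA of 1 pool of 15 mice, and the submitters call the pools biological replicates. The study's general methods describe younger mice and smaller pools, so the age and pool size of these samples are those of the labels alone. CH cells were sorted by flow cytometry as small, viable, DNA-containing events without CD45 and lineage antigens. There was 1 group of untreated animals, no array of embryonic stem cells or epiblast was analysed here, and the comparison is therefore between genes within CH cells. In pooled RNA, fewer cells of a type and less RNA per cell cannot be told apart.

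In the mouse, the naive state is that of the epiblast before implantation and of embryonic stem cells. It is held by a network of transcription factors under the cytokine LIF, with Gsk3 and ERK signalling kept low. The primed state is that of the epiblast after implantation, in which FGF and Nodal signals act, naive factors are lost, and Fgf5, Otx2 and Pou3f1 come on. Oct4 (Pou5f1) and Sox2 belong to both states.

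Windows around the transcription start sites are given for 4 members with 1 listed window each, to show the start of genes on both sides of the limit described below. Klf2 and Fgf5 lay above that limit and Tcl1 and Nr0b1 below it. Sequences are those of RefSeq on GRCm38.p6, from 250 bases before to 50 after the start, 5′ to 3′ on the strand of the gene. Capitals mark the letters GGGCGG, as in a GC box, and TATAAA, as in a TATA box, on both strands. They were marked wherever they occur, without regard to the distance from the start. In the window of Fgf5 the TATAAA letters lie after the start.
Klf2, chr8:72318812-72319111, plus strand: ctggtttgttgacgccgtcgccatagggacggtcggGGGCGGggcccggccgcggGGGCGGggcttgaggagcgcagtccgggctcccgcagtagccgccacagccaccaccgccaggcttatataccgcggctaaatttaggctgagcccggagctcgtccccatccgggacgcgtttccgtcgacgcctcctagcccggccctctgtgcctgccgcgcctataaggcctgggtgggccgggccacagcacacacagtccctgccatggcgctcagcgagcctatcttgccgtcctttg
Fgf5, chr5:98253934-98254233, plus strand: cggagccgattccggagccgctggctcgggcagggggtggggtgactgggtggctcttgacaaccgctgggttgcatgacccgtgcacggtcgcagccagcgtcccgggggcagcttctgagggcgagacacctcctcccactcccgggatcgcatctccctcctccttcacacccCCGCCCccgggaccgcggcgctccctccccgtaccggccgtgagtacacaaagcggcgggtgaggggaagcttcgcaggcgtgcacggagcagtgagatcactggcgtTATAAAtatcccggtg
Tcl1, chr12:105222688-105222987, minus strand: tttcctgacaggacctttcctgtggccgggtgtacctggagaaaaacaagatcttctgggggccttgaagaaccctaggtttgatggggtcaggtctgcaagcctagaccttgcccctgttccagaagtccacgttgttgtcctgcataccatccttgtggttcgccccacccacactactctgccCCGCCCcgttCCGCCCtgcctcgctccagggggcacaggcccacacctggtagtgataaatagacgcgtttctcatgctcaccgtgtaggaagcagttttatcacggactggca
Nr0b1, chrX:86191525-86191824, plus strand: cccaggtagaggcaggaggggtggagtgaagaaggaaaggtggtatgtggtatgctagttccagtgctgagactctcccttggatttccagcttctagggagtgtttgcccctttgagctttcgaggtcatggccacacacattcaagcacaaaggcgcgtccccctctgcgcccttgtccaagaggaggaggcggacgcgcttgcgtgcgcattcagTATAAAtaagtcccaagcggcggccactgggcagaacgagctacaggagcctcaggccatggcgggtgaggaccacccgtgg
The window of Klf2 held 32 CpG dinucleotides and that of Fgf5 held 29. Those of Tcl1 and Nr0b1 held 11 and 14. Among members not shown, the window of Tfcp2l1 held 21, both windows of Esrrb held 7, and the 4 windows of Otx2, the member with the highest signal, held 11, 16, 8 and 6. CpG numbers are given as values only, since signals of different probe sets cannot be ranked. The median over 32851 windows of all genes was 7. Of the 4 windows shown, GGGCGG was present in those of Klf2, Fgf5 and Tcl1 and in 35.7% of all windows, and TATAAA in those of Fgf5 and Nr0b1 and in 13.6% of all. The octamer ATTTGCAT, a motif of POU factors, was in none of the 11 windows listed for 7 members and in 1.74% of all windows. These counts describe the letters in the windows and were not set against the signals by a test.

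Signals are log2 values per probe set as deposited. A gene counted as above the limit if both arrays gave more than 5 (log2) with its highest probe set, since the study's methods name 5 as a floor for clustering. The mean of each probe set was also tested against 5 with limma. The medians of the arrays were 5.54 and 5.52, and over all probe sets, as a description, Pearson's r between the arrays was 0.997 and the SD of their difference 0.20. Receptors of smell and taste served as background, and 13 of their 76 genes (17.1%) were above 5. The 95th percentile of the receptor probe sets was 6.04 and the highest signal of a receptor gene on either array was 6.96. A signal above 5 is therefore not by itself evidence of a transcript, and each member is also placed against 6.04 and 6.96. Ptprc, which encodes CD45, gave 4.95 on array 1 and 5.24 on array 2 with its higher probe set. Signals of different probe sets also carry the affinity of their oligonucleotides, and a higher signal of 1 gene than of another does not mean more transcript.

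All primed genes were above the limit of 5 in CH cells, and 4 of 6 naive genes were, beside 71.2% of all genes. Otx2 and Fgf5 among the primed genes and Tbx3 and Klf2 among the naive genes also lay above the highest receptor signal of 6.96 on both arrays, as did 47.9% of all genes. Esrrb, Tfcp2l1 and Pou3f1 had means between 5 and the receptor level of 6.04. Above 6.04 on both arrays were 2 naive and 2 primed genes, beside 57.3% of all genes. Tcl1 and Nr0b1 were below 5 on both arrays. By probe set, 5 of 5 primed and 7 of 14 naive ones were above 5 on both arrays, beside 64.8% of the probe sets that name 1 gene and 57.2% of all probe sets. A further 6 naive probe sets and 0 primed ones were below 5 on both arrays, as were 39.1% of all. With limma, 12 of the 19 probe sets were above 5 at an adjusted p under 0.05 and 6 were below it, beside 54.8% and 36.4% of all probe sets.

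**Figure D1:**
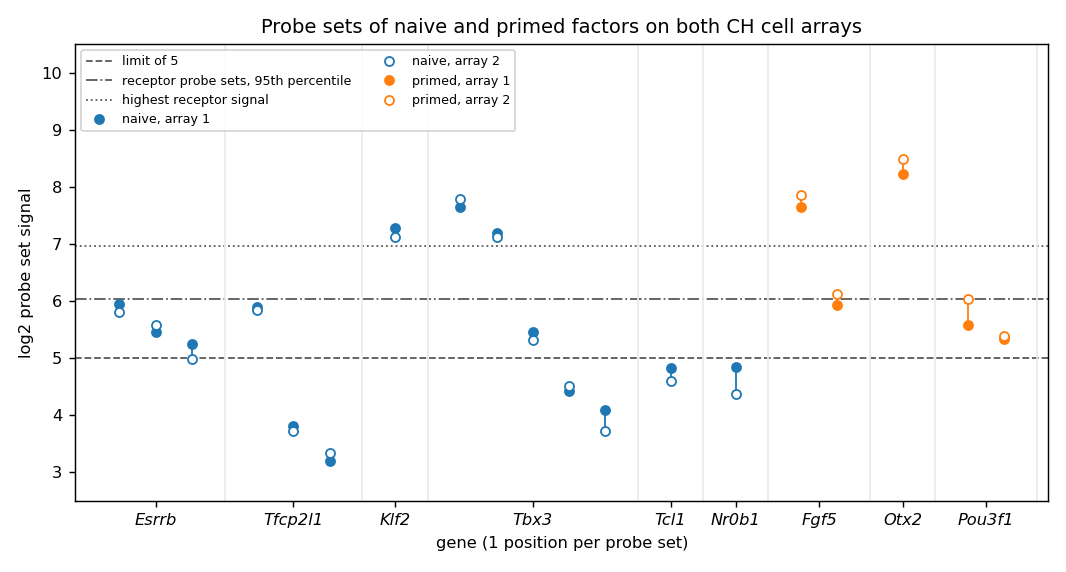
Log2 signal of each of the 19 probe sets of the naive (blue) and primed (orange) genes, with filled circles for array 1 and open circles for array 2 joined by a line. The dashed line marks the limit of 5, the dash-dotted line the 95th percentile of receptor probe sets (6.04) and the dotted line the highest receptor signal (6.96), above which lie Klf2, 2 probe sets of Tbx3, 1 of Fgf5 and Otx2.

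Tbx3, a T-box factor that acts with Nanog and Klf factors in naive cells, had the highest naive signal. Its probe set 1448029_at gave 7.65 on array 1 and 7.79 on array 2, a mean of 7.72 ± 0.10 (SD, n = 2 arrays). The 95% interval of that mean from limma was 7.52 to 7.92, and the adjusted p against 5 was 1.23e-06. The 4 other probe sets of Tbx3 gave lower signals. Probe set 1437479_x_at was at 7.20 and 7.11, and 1439567_at at 5.46 and 5.32. Probe sets 1445757_at and 1444594_at were below 5 on both arrays, at 4.46 ± 0.06 and 3.90 ± 0.26 (SD, n = 2 arrays). The probe sets of Tbx3 thus spanned 3.82 on the log2 scale, the widest range of any member. A gene with many probe sets has more occasions to pass a limit with its highest one, and 95.9% of genes with 5 probe sets were above 5, against 56.7% of genes with 1. Tbx3 is also known from mesenchyme of the limb and other organs, and 8 of 8 mesenchymal markers were above 5 on these arrays (71.2% of all genes), from Thy1 at 7.47 to Col1a2 at 14.27. On the log2 scale their summed signal was 15.76 on array 1 and 15.71 on array 2. Their part in the signal of Tbx3 was not tested.

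Klf2, a zinc finger factor of the Krüppel-like family, was read by 1 probe set designed from a RefSeq mRNA. It gave 7.27 on array 1 and 7.12 on array 2, with a mean of 7.19 ± 0.11 (SD, n = 2 arrays) and an adjusted p of 3.4e-06 against 5 (limma). Both arrays placed it above the highest receptor signal, at the 69.0th and the 67.4th percentile of all probe sets. Klf2 is also a factor of endothelial cells and resting lymphocytes. The counts of marker genes above 5 that follow stand beside 71.2% of all genes. Of 6 endothelial markers 2 (33.3%) were above 5, Kdr at 6.43 and Cdh5 at 5.13, while Tek, Vwf, Pecam1 and Emcn lay between 3.83 and 4.57. Of 13 leukocyte markers 8 (61.5%) were above 5, the highest being Csf1r at 7.42, Laptm5 at 6.69, Cd3e at 6.61 and S100a9 at 6.54. The lowest probe set of Laptm5 was at 3.21. Above the highest receptor signal of 6.96 on both arrays were 1 of 13 leukocyte and 0 of 6 endothelial markers, beside 47.9% of all genes. Itgam, Cd3g, Ms4a1 and Cd79a were below 5 on both arrays, between 3.85 and 4.72. The summed signal of the endothelial list was 7.60 and 7.65 (log2) on arrays 1 and 2, and that of the leukocyte list 9.71 and 9.62. Such a sum includes background and grows with the number of genes, so sums of different lists do not compare amounts of cells. The 76 receptor genes taken as background gave 10.85 and 10.84. Their part in the signal of Klf2 was not tested. Of the other blood cells, erythroid markers were above 5 in 2 of 5 cases, with Epor at 7.14 and Hba-a1 at 4.22, and platelet markers in 4 of 5 (80.0%), with Itga2b at 7.18 and Ppbp at 6.99. Above the highest receptor signal on both arrays were 1 of 5 erythroid and 1 of 5 platelet markers. Summed signals of the erythroid list were 8.10 and 8.08 (log2), and of the platelet list 8.72 and 8.88.

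Esrrb, an orphan nuclear receptor that Tcf7l1 represses unless Gsk3 is inhibited, had 3 probe sets near the limit. The highest, 1441921_x_at, gave 5.94 on array 1 and 5.81 on array 2, and its ending _x_at marks oligonucleotides that may also read other transcripts. Probe set 1422986_at, designed from a RefSeq mRNA, was at 5.46 and 5.58 (adjusted p = 0.00117 from limma). The last, 1436926_at, lay on either side of 5 with 5.24 and 4.98, and limma's test against 5 did not pass (adjusted p = 0.295). None of the 3 reached the receptor level of 6.04 on either array.

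Tfcp2l1, a factor of the CP2 family induced by LIF and Stat3, depended on the probe set. Probe set 1418091_at, designed from a RefSeq mRNA, gave 5.89 on array 1 and 5.85 on array 2, with a mean of 5.87 ± 0.03 (SD, n = 2 arrays; adjusted p = 0.000101 from limma). The other probe sets, 1460715_x_at and 1460714_at, were at 3.77 ± 0.06 and 3.26 ± 0.10 and so below 5 on both arrays. These 2 were designed from the same sequence and do not count as separate readings. The median of its probe sets was 3.77, so Tfcp2l1 was above the limit only by its highest one.

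Tcl1, a cofactor of the kinase Akt that is also expressed in lymphocytes, had 1 probe set with 4.83 on array 1 and 4.60 on array 2. Its mean of 4.71 ± 0.17 (SD, n = 2 arrays) was below 5 by limma's test (adjusted p = 0.0246). Nr0b1, also called Dax1, an orphan nuclear receptor without the usual DNA-binding domain, had 1 probe set with 4.85 on array 1 and 4.38 on array 2. Its mean of 4.61 ± 0.33 was also below 5 (adjusted p = 0.0307, limma). Both probe sets were designed from RefSeq mRNAs. Among all genes 26.0% had their highest probe set below 5 on both arrays. That share covers genes with any number of probe sets. Of genes with 1 probe set, as Tcl1 and Nr0b1 have, only 56.7% were above 5 on both arrays. A signal below 5 does not show that the transcript is absent, since a probe set of low affinity would give the same reading.

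Otx2, a homeobox factor that directs enhancers in the passage out of the naive state, had the highest signal of all members. Its only probe set, 1425926_a_at, gave 8.22 on array 1 and 8.49 on array 2. The mean was 8.36 ± 0.19 (SD, n = 2 arrays), with a 95% interval of 8.12 to 8.59 and an adjusted p of 1.11e-06 against 5 (limma). It was the 1 member above 8 on both arrays, and lay at the 77.0th and the 79.2th percentile of all probe sets. Otx2 is also a factor of the retina. Of the photoreceptor genes with a probe set, Rom1 was at 5.56, Pde6b at 4.69 and Gnat1 at 4.24, and the part of such cells in the signal of Otx2 was not tested. Of all 11 genes of retina, lens and sperm taken as background, 5 (45.5%) were above 5, beside 71.2% of all genes. The highest was the sperm gene Prm1 at 6.70, read by a probe set ending in _x_at, while the median over its 3 probe sets was 3.16.

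Fgf5, a secreted growth factor and the classical marker of the epiblast after implantation, was above 5 with both probe sets. Probe set 1438883_at gave 7.65 on array 1 and 7.85 on array 2, a mean of 7.75 ± 0.14 (SD, n = 2 arrays; adjusted p = 1.65e-06 from limma). Probe set 1426186_a_at gave 5.93 and 6.13 and was close to the receptor level of 6.04. Pou3f1, also called Oct6, a POU factor of the epiblast and of neural and glial cells, stood nearer to the limit. Its probe set 1460038_at gave 5.57 on array 1 and 6.04 on array 2, and 1422068_at, from a RefSeq mRNA, gave 5.33 and 5.39. Both means of Pou3f1 were above 5, with adjusted p-values of 0.00169 and 0.00445 (limma), and the first had the largest spread of any primed probe set (SD 0.33).

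Taken as groups, the 3 primed genes had a median of 7.75 and the 6 naive genes one of 5.87, each gene taken at its highest probe set. The median of all genes was 6.84, which lies between them. Naive minus primed was -1.73 on array 1 and -2.02 on array 2, a mean of -1.87 ± 0.20 (SD, n = 2 arrays). When each gene was taken at the median of its probe sets instead, the difference was -1.83, and 3 naive and 3 primed genes were above 5, beside 65.2% of all genes. With so few genes the size of the difference rests on single members. It was -0.90 without Otx2, -1.21 without Fgf5 and -2.18 without Pou3f1, while leaving out any 1 naive gene gave -1.87 or -1.88. No test was made of this difference, because genes are not replicates and oligonucleotide affinity adds to it by an amount that is not known.

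**Figure D2:**
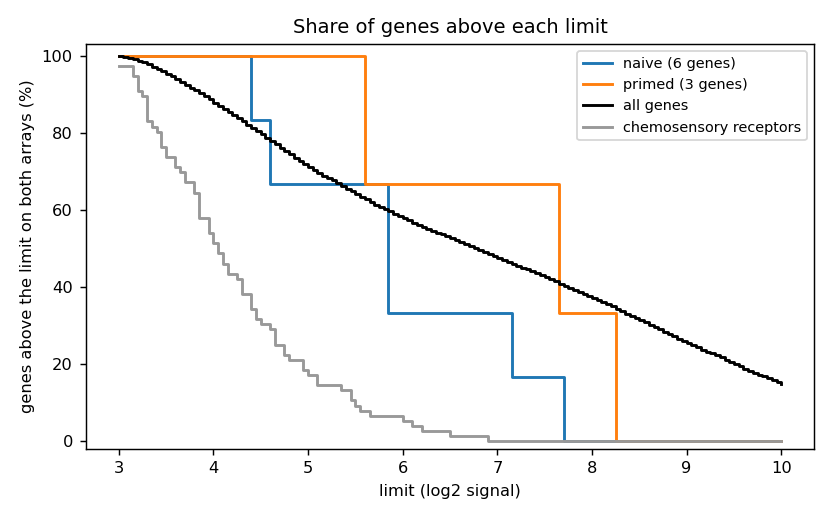
Percent of naive genes (blue), primed genes (orange), all genes (black) and chemosensory receptor genes (grey) whose highest probe set was above a limit on both arrays, as the limit on the horizontal axis (log2 signal) goes from 3 to 10. At 5 the naive share is 66.7% beside 71.2% of all genes, at 6 it is 33.3% beside 57.8%, and the primed share is 66.7% at 6.

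Both counts depended on the limit. At 6, 2 of 6 naive and 2 of 3 primed genes remained above it on both arrays, beside 57.8% of all genes. At 8, 0 naive genes and 1 primed gene were above it, beside 37.0%. Among the 18193 genes, Otx2 at 8.36 lay at the 66.3th percentile of the genes by their highest probe set.

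Differences between the pools were small for most members. All 5 primed probe sets were higher on array 2, by 0.05 to 0.46 (log2), and 4 of 14 naive probe sets were. Over all probe sets 50.2% were higher on array 2. The probe sets of a gene are not independent, and a direction shared by members on 1 pair of arrays was not tested. Nr0b1 was 0.47 lower on array 2 (array 2 minus array 1 was -0.47), and 1460038_at of Pou3f1 was 0.46 higher. Probe sets of like level differed between the arrays with an SD of 0.24 in both cases, and by size the differences stood at the 96.9th and the 96.7th percentile of all probe sets. For 1444594_at of Tbx3, array 2 minus array 1 was -0.37, where probe sets of like level had an SD of 0.22. Otx2 was 0.27 higher on array 2, where probe sets of its level had an SD of 0.15.

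**Figure D3:**
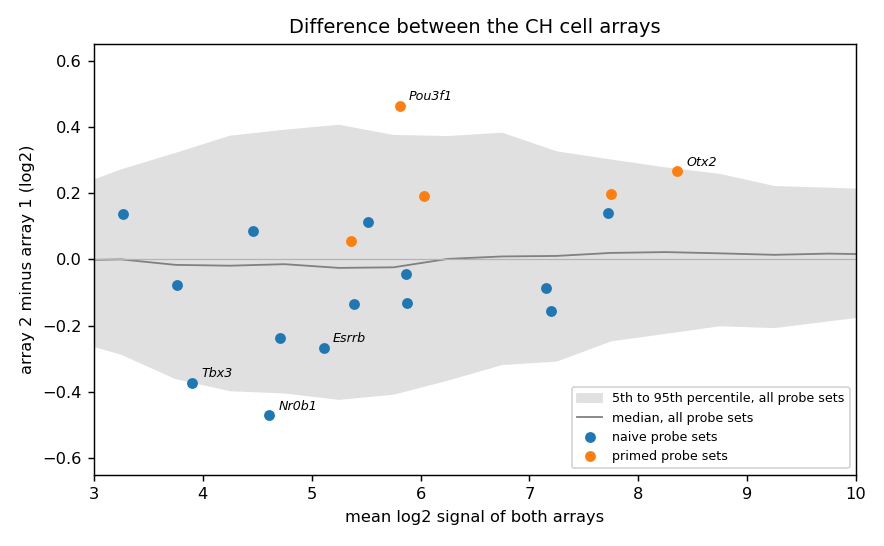
Array 2 minus array 1 (log2) against the mean log2 signal for the naive (blue) and primed (orange) probe sets, with the 5th to 95th percentile of all probe sets in bins of signal as a grey band and their median as a line. Pou3f1 at 0.46 and Nr0b1 at -0.47 lie outside the band, Tbx3 (1444594_at) at -0.37 lies at its lower edge, and names are given for differences beyond 0.25.

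Further genes of the naive state were above 5 in 11 of 14 cases and further genes of the primed state in 11 of 11, beside 71.2% of all genes. The naive ones had a median of 6.31 and the primed ones of 7.61. At a limit of 6 the counts were 7 of 14 and 11 of 11 (57.8% of all genes), and above the highest receptor signal 4 of 14 and 7 of 11 (47.9%). With each gene at the median of its probe sets, 8 of 14 and 11 of 11 were above 5 (65.2% of all genes). Among the naive genes, Dppa5a, an RNA-binding protein of early embryos, had the highest signal at 10.44 ± 0.01 (SD, n = 2 arrays). Klf5 and Klf4, which share roles with Klf2 in naive cells, were at 9.67 ± 0.02 and 9.23 ± 0.02. However, the lowest probe set of Klf5 was at 3.69 and the median of its 3 probe sets was 4.73. Nanog was at 7.78 ± 0.23. The coactivator of Esrrb, Ncoa3, was at 6.98 ± 0.24, and the DNA demethylation enzyme Tet2 at 6.82 ± 0.16. Zfp42 and Dppa3 were at 6.59 and 6.02. The nuclear receptor Nr5a2 was at 5.80 ± 0.12, Jam2 at 5.62 ± 0.09 and Fbxo15 at 5.60 ± 0.13, all of them under the receptor level of 6.04. The median over the 4 probe sets of Nr5a2 was 4.72, and over the 5 of Jam2 it was 4.32. Below 5 on both arrays were Gbx2, a homeobox target of LIF and Stat3, at 4.33 ± 0.08, the ETS factor Spic at 4.08 ± 0.32 and Prdm14 at 4.01 ± 0.06.

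Of the further primed genes, the lowest was Grhl2, a grainyhead factor of epithelial enhancers, at 6.32 ± 0.01 (SD, n = 2 arrays). Dnmt3b, the de novo DNA methyltransferase that comes on in the epiblast, was at 10.55 ± 0.02, and Dnmt3a at 7.61 ± 0.14. Cdh2, which encodes N-cadherin and is also a gene of mesenchymal cells, was at 11.02 ± 0.001. Fgf8, a ligand of the late epiblast and primitive streak, was at 8.82 ± 0.01. The tight junction gene Cldn6 was at 7.85 ± 0.11 and the ETS factor Etv4 at 7.72 ± 0.12. The zinc finger factors Zic5 and Zic2 were at 7.15 ± 0.03 and 6.78 ± 0.31. Sox3 was at 7.04 ± 0.26 and Lef1, a partner of beta-catenin, at 6.84 ± 0.03. The lowest probe sets of Etv4 and Grhl2 were below 5, at 4.14 and 4.70. At the median of their probe sets, Etv4, Zic5 and Grhl2 were under 6, at 5.93, 5.78 and 5.39.

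Genes that both states share all lay above 6, 11 of 11, beside 57.8% of all genes, and their median was 9.33. They ran from Dppa4 at 7.02 ± 0.22 and Sox2 at 7.11 ± 0.34 through Utf1 at 7.70, Zfp281 at 9.09, Epcam at 9.10, Cdh1 at 9.33, Pou5f1 at 9.49, Lin28a at 9.62, Tdgf1 at 9.66 and Rif1 at 10.13 to Sall4 at 10.43 ± 0.11 (SD, n = 2 arrays). The lowest probe sets of Utf1 and Lin28a were under 6, at 5.45 and 5.80. The median over the 3 probe sets of Utf1 was 5.46. Germ cells also use many of the shared genes. Of 5 germ cell genes, 3 (60.0%) were above 5, beside 71.2% of all genes. Tfap2c was at 7.22 ± 0.49, Kit at 7.00 ± 0.06 and Prdm1 at 6.50 ± 0.60. Above the highest receptor signal of 6.96 on both arrays were 0 of the 5, beside 47.9% of all genes. Ddx4 and Dazl, which define later germ cells, were at 4.21 and 4.13. The summed signal of that list, background included, was 8.43 on array 1 and 8.90 on array 2 (log2). The part of germ cells in the members' signals was not tested.

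**Figure D4:**
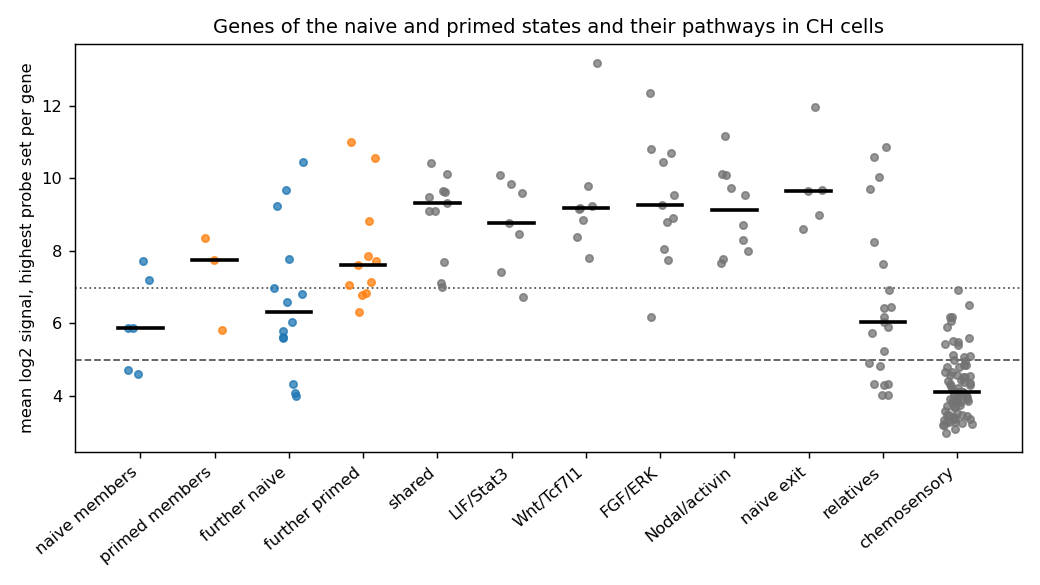
Vertical axis, mean log2 signal of both arrays, taken from the highest probe set per gene. Each circle is a gene and each black bar the median of its list, for the members, further genes of both states, their pathways, relatives of the members and chemosensory receptors. The limit of 5 is dashed and the highest receptor signal of 6.96 dotted. The medians are 5.87 for naive members, 7.75 for primed members, 6.31 and 7.61 for further naive and primed genes and 9.33 for shared genes.

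Genes of the pathways that hold or dissolve the naive state were above 5 wherever they had a probe set of their own, beside 71.2% of all genes. Most of them have several probe sets, and of genes with 2, 3 and 5 probe sets 80.8%, 88.8% and 95.9% were above 5. For LIF and Stat3, which support naive cells, 7 of 7 genes were above 5. The shared receptor chain Il6st was at 10.10, the feedback inhibitor Socs3 at 9.84, the kinase Jak1 at 9.61, Stat3 at 8.76, the ligand Lif at 8.46 and its own receptor chain Lifr at 6.72. The median over the 3 probe sets of Lifr was 5.14, and the lowest was at 4.26. For Wnt signalling 8 of 8 were above 5, with beta-catenin (Ctnnb1) at 13.20, Gsk3b at 9.79, Tcf7l1, the repressor of naive genes, at 8.38, and the target Axin2 lowest at 7.80. For FGF and ERK signalling 11 of 11 were above 5. The ERK phosphatase Dusp6 was at 12.35, the kinases Map2k1 and Map2k2 at 10.81 and 10.70, the ETS factor Etv5 at 10.44, the inhibitor Spry2 at 9.54 and the receptor Fgfr1 at 8.81. Fgf4, the ligand that opens this pathway in the early epiblast, was lowest at 6.17, and the median over its 4 probe sets was 4.25. For Nodal and activin 10 of 10 were above 5, led by Smad4 at 11.16, Smad3 at 10.12, Lefty1 at 10.09 and Smad2 at 9.74, with Acvr2b lowest at 7.67. Of the regulators of the exit from the naive state, 5 of 5 were above 5, with Rbpj at 11.99, Mbd3 at 9.67, Fnip1 at 9.66, Tfe3 at 8.99 and folliculin (Flcn) at 8.61. Many of these genes act in most cell types, and housekeeping genes were above 5 in 6 of 6 cases.

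The closest relatives of the members were above 5 in 14 of 21 cases, beside 71.2% of all genes, with a median of 6.02. Their signals are set beside those of the members as values only, since different probe sets cannot be ranked. Tcl1b3, a relative of Tcl1, was at 10.59 ± 0.04 (SD, n = 2 arrays) and Tcl1b1 at 6.41 ± 0.05, where Tcl1 itself was at 4.71. Both relatives were read only by probe sets ending in _x_at, which may read other copies of the family as well, so their values are uncertain. Esrra, a relative of Esrrb with wide expression, was at 8.24 ± 0.02 and Esrrg at 4.29 ± 0.09. The relatives of Tfcp2l1, Ubp1 and Tfcp2, were at 9.72 and 6.92. Klf6 and Klf3 reached 10.88 ± 0.12 and 10.04 ± 0.12 while the erythroid factor Klf1 was at 5.90 ± 0.29. The relative of Nr0b1, Nr0b2, was at 5.74. On the primed side, Otx1 was at 4.01 ± 0.27 and Crx, of photoreceptors, at 5.24 ± 0.12, where Otx2 was at 8.36. Of the other factors of the Pou3f family, Pou3f2 was at 6.44 ± 0.30 with its lowest probe set at 3.36, Pou3f4 at 4.90 ± 0.17 and Pou3f3 at 4.82 ± 0.07. Among T-box genes, Tbx5 was at 6.02 ± 0.22, and Tbx4 and Tbx2 were at 4.33 and 4.01, where Tbx3 was at 7.72.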

How the data were processed

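Total RNA of CH cells (50 µg of each pool, per the labels) was read on 2 Affymetrix mouse arrays, and the values deposited by the authors are log2 signals, 1 per probe set and array. For the arrays the study's methods give a cell number and no RNA amount, so the 50 µg rest on the labels alone. In the methods, RMA and quantile normalisation were run jointly on these arrays and public series, which fixes the scale by the other arrays. The origin of the deposited values in that run and the tool versions are not stated in the sources used here. Of 45101 probe sets, 64 controls were left out. Of the remaining 45037, 34945 named 1 gene, 932 several and 9160 had no gene in the platform annotation. Entrez identifiers matched 34741 to RefSeq (GRCm38.p6), which changed 0 symbols. The means were set against 5 with limma 3.58.1 in R 4.3.3, an intercept-only fit with empirical Bayes moderation, two-sided, adjusted by Benjamini-Hochberg over 45037 probe sets at 0.05, and the step was tested on simulated data. The p-values cover the spread between 2 arrays, whose number limits the precision. Counts, medians and promoter windows were computed with Python 3.11.15, numpy 2.4.6 and pandas 2.3.3, and plots drawn with matplotlib 3.10.9. The members and lists were chosen with earlier results of these data known. Named were all members, all genes of the further and shared lists, and of other lists up to 4 genes with the highest mean and those nearest 5, together with Ptprc. Other genes of the pathways, relatives and markers were named after their values were seen. With 2 arrays of 1 condition, genes of like pattern were not sought. Several listed genes were not analysed here. Coordinates are printed for promoter windows only.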

Additional observations from a re-analysis of the deposited data

How the results depend on the processing

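Counts depended on the limit, by its construction. The naive genes above it went from 4 to 2 at a limit of 6, at the 95th percentile of receptor probe sets and at the highest receptor signal, and to 0 at a limit of 8. The limit at the highest receptor signal was chosen after the data were seen. The primed genes went from 3 to 2 at 6, at the 95th percentile and at the highest receptor signal, and to 1 at a limit of 8. The members' probe sets went from 12 to 5 at 6, at the 95th percentile and at the highest receptor signal, and to 1 at 8. All probe sets went from 25740 to 10980 at 8 and to 14935 at the highest receptor signal. The further naive genes went from 11 to 7 at 6 and at the 95th percentile, to 4 at the highest receptor signal and to 3 at 8. The further primed genes went from 11 to 7 at the highest receptor signal and to 3 at 8, and the further genes and pathway genes together from 74 to 46 at 8. Limma, quantile normalization of both arrays, the median over probe sets, leaving out _s_at and _x_at probe sets and the omission of either array moved no count by over 1.5 times. The arrays were already alike, with medians of 5.54 and 5.52 and r of 0.997. Quantile normalization and the omission of an array could therefore move the counts little. Naive minus primed was -2.02 without array 1 and -1.73 without array 2, and between -1.83 and -2.05 under the other 3 settings that apply to it. The median over probe sets took Tfcp2l1 below the limit (3.77), lowered Tbx3 to 5.39 and Esrrb to 5.52, and lowered Fgf5 to 6.89, below the highest receptor signal of 6.96. No paired analysis was possible because the arrays form 1 group. Near the limit, probe sets differed between the arrays with an SD of about 0.24, so members that close to 5 are not firmly placed on either side.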
